A study of Mus musculus with 9 samples.

Results

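Hox genes encode homeodomain transcription factors and lie in 4 clusters, Hoxa, Hoxb, Hoxc and Hoxd, each on a chromosome of its own. They are described here in 3 mouse stromal cell lines. Members were all probe sets, the groups of oligonucleotides that together measure a transcript on an Affymetrix array, to which the platform annotation gave exactly 1 symbol made of Hoxa, Hoxb, Hoxc or Hoxd and a number. This choice used no measured value. It found 54 of the 36701 probe sets that are not controls. They cover 33 of the 39 genes of the clusters in the RefSeq table: 10 of Hoxa, 10 of Hoxb, 6 of Hoxc and 7 of Hoxd. The other genes of the clusters were not analysed here.

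Both lines of the AGM (aorta-gonad-mesonephros), the embryonic site at which hematopoietic stem cells arise, are stromal. AGM-s3-A9, called the supportive AGM line below, sustains hematopoiesis, and AGM-s3-A7, called the non-supportive line, does not. OP9, a further supportive line, came from the calvaria (skull vault) of newborn mice. OP9 is known as a line from mice that lack functional macrophage colony-stimulating factor, and the AGM lines are known as subclones of 1 parental line, so that each is 1 clone. The labels name no treatment, passage or culture density, and each line stands for its tissue of origin only as 1 established culture. RNA of each line was hybridised once to MG-U74A, once to MG-U74B and once to MG-U74C, arrays with different probe sets, which gave 9 arrays and no replicates. No p-value or replicate error can therefore be given, and all 3 pairwise comparisons share arrays with each other.

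Within a Hox cluster the genes stand in the order of their paralog numbers, and genes of the same number in different clusters are close relatives. In the embryo, low-numbered genes are expressed from the hindbrain backwards and high-numbered genes only in the hind trunk, the limbs and the genital region, so that the set of active Hox genes differs along the body axis. Fibroblasts and other mesenchymal cells commonly keep the Hox pattern of their site of origin in culture, while the bones of the skull vault develop largely from head mesenchyme in which Hox genes are mostly silent. HOX proteins bind DNA together with PBX and MEIS homeodomain proteins, Polycomb and Trithorax proteins keep the clusters silent or active, and retinoic acid and CDX proteins act on them in the embryo.

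Intensities were quantile normalized within an array type. A transcript is called detected above a level of 49.0 (MG-U74A), 52.8 (MG-U74B) or 61.6 (MG-U74C), the higher of the array type's median and the 95th percentile of 34 control probe sets that should find no target. Values at or below this level were set to it before a ratio was formed, so a fold against such a value is a lower bound ("at least"), and 2 lines that both lie there have no fold. Where 2 probe sets of the same array measured 1 gene, both below an intensity of 400, the difference between them gave a robust SD of the log2 ratio of 0.32 for the supportive AGM line against the non-supportive line (811 genes), 0.33 for OP9 against the non-supportive line (789 genes) and 0.34 for the supportive AGM line against OP9 (783 genes). This spread covers differences between probe sets and not between cultures. Of 9 mesenchymal stroma markers, 8, 8 and 7 were detected in the supportive AGM line, the non-supportive line and OP9, with summed intensities of 20454, 21239 and 10909. In OP9, Thy1 was at 4.61, below the level, and Col3a1 at 550, against 3281 in the non-supportive line. Of the 8 detected markers, 3 were at least 2-fold lower in OP9 than in the non-supportive line and 0 higher. Over all detected genes the shares were 5.98% and 5.14%. Not every marker was lowest in OP9: Fn1 read 501, 669 and 748 and Pdgfra 1187, 1720 and 1377 in the same order. Vim was not detected in any line. None of 5 endothelial markers was detected. Of 6 measured hematopoietic markers Laptm5 alone exceeded the level (49.6, 72.8 and 47.5 in the same order), Ptprc staying between 0.903 and 2.31. Of 4 epithelial markers Cdh1 (101, 126 and 106) and Epcam (85.7, 103 and 84.5) exceeded it and Krt8 and Krt18 did not. The summed intensity of the epithelial list was 205, 250 and 212, that of the hematopoietic list 78.0, 106 and 85.9, and that of the endothelial list 48.1, 40.9 and 22.3. In bulk RNA, fewer cells with a transcript and less of it per cell cannot be told apart.

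The reference table held promoters for 3 of the 7 genes whose transcripts differed by at least 2-fold between lines, Hoxa5, Hoxb4 and Hoxd8. They are shown because these genes, from 3 different clusters, carry differences described below. Each run is the 250 bases before the annotated start (RefSeq, GRCm38.p6), 5′ to 3′ on the gene's strand. Capitals mark matches, on either strand, to the CCAAT box or to the nuclear receptor half-site AGGTCA, the unit from which retinoic acid response elements are built.
Hoxa5: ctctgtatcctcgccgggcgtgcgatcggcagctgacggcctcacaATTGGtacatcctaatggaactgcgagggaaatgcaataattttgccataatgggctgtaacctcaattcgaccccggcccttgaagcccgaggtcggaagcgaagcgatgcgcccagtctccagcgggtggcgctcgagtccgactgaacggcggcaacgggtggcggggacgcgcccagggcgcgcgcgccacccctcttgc
Hoxb4: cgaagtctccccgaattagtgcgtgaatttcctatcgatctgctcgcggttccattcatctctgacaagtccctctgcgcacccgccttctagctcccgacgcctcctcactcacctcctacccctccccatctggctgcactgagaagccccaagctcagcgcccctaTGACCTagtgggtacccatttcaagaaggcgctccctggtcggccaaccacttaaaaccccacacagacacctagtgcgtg
Hoxd8: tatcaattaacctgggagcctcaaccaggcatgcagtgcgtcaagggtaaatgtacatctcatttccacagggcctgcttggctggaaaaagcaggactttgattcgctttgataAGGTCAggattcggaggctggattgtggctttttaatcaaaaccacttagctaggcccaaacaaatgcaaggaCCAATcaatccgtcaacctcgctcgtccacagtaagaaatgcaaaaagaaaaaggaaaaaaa

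The Hoxa5 run lies at chr6:52204588-52204837 on the minus strand, inside the clustered genes, where it overlaps the annotated spans of Hoxa3 and Hoxaas3. The Hoxb4 run lies at chr11:96318017-96318266 on the plus strand and overlaps the span of Hoxb3. The Hoxd8 run lies at chr2:74704365-74704614 on the plus strand and overlaps that of Gm38462. The 3 runs differ in base composition. That of Hoxa5 holds 63.6% G and C with an observed over expected CpG ratio of 1.11, that of Hoxb4 holds 58% with 0.76, and that of Hoxd8 holds 44.4% with 0.49. Over the 22 Hox promoters in the table the median was 56.8% G and C with a CpG ratio of 0.603, and over all 27025 promoters it was 52% with 0.378. AGGTCA matched the runs of Hoxb4, 81 bases before the start, and of Hoxd8, 135 bases before it. It matched 6 of the 22 Hox promoters and 13.8% of all promoters. CCAAT matched the runs of Hoxa5 and Hoxd8, 13 of the 22 Hox promoters and 34.5% of all. The TATA box letters TATAAA (3 of 22, against 13% of all), the homeodomain core TAATTA (1 of 22, against 4.90%) and the joint Pbx and Hox letters TGATTNAT (1 of 22, against 2.99%) matched none of the 3 runs. The marked matches do not overlap. A match says only that these letters are in the window.

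Hox transcripts were detected in all 3 lines, in fewer genes of OP9 than of either AGM line. Of the 33 measured genes, 13 were detected in the supportive AGM line, 16 in the non-supportive line and 10 in OP9, 17 in at least 1 line and 9 in all of them. Hoxa7, Hoxb5 and Hoxb7 were detected in both AGM lines and not in OP9. Hoxb3, Hoxc4, Hoxc8 and Hoxd9 were detected in the non-supportive line alone, and Hoxa6 in the supportive AGM line and OP9. No Hox gene was detected in OP9 alone or in the supportive AGM line alone. These classes depend on the scale. On the deposited intensities 16 genes were detected in each AGM line and 9 in OP9. Hoxc5 was then detected in the supportive AGM line alone (54.0, against 39.3 in the non-supportive line and a level of 48.4). Hoxc4 and Hoxd9 were detected in both AGM lines, and Hoxb3 and Hoxc8 remained in the non-supportive line alone. Hoxb6 fell below the level in OP9, at 47.8. With the floor at the highest control 8 genes were detected in OP9, and Hoxb4 and Hoxb6 were not among them. Counted by probe set, 29.6% of the 54 were above the level in the supportive AGM line, 37.0% in the non-supportive line and 20.4% in OP9, whereas over all probe sets the share was 32.9% in each line. The share above the level in at least 1 line was 40.7% for Hox, near the 38.1% of all probe sets.

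**Figure D1:**
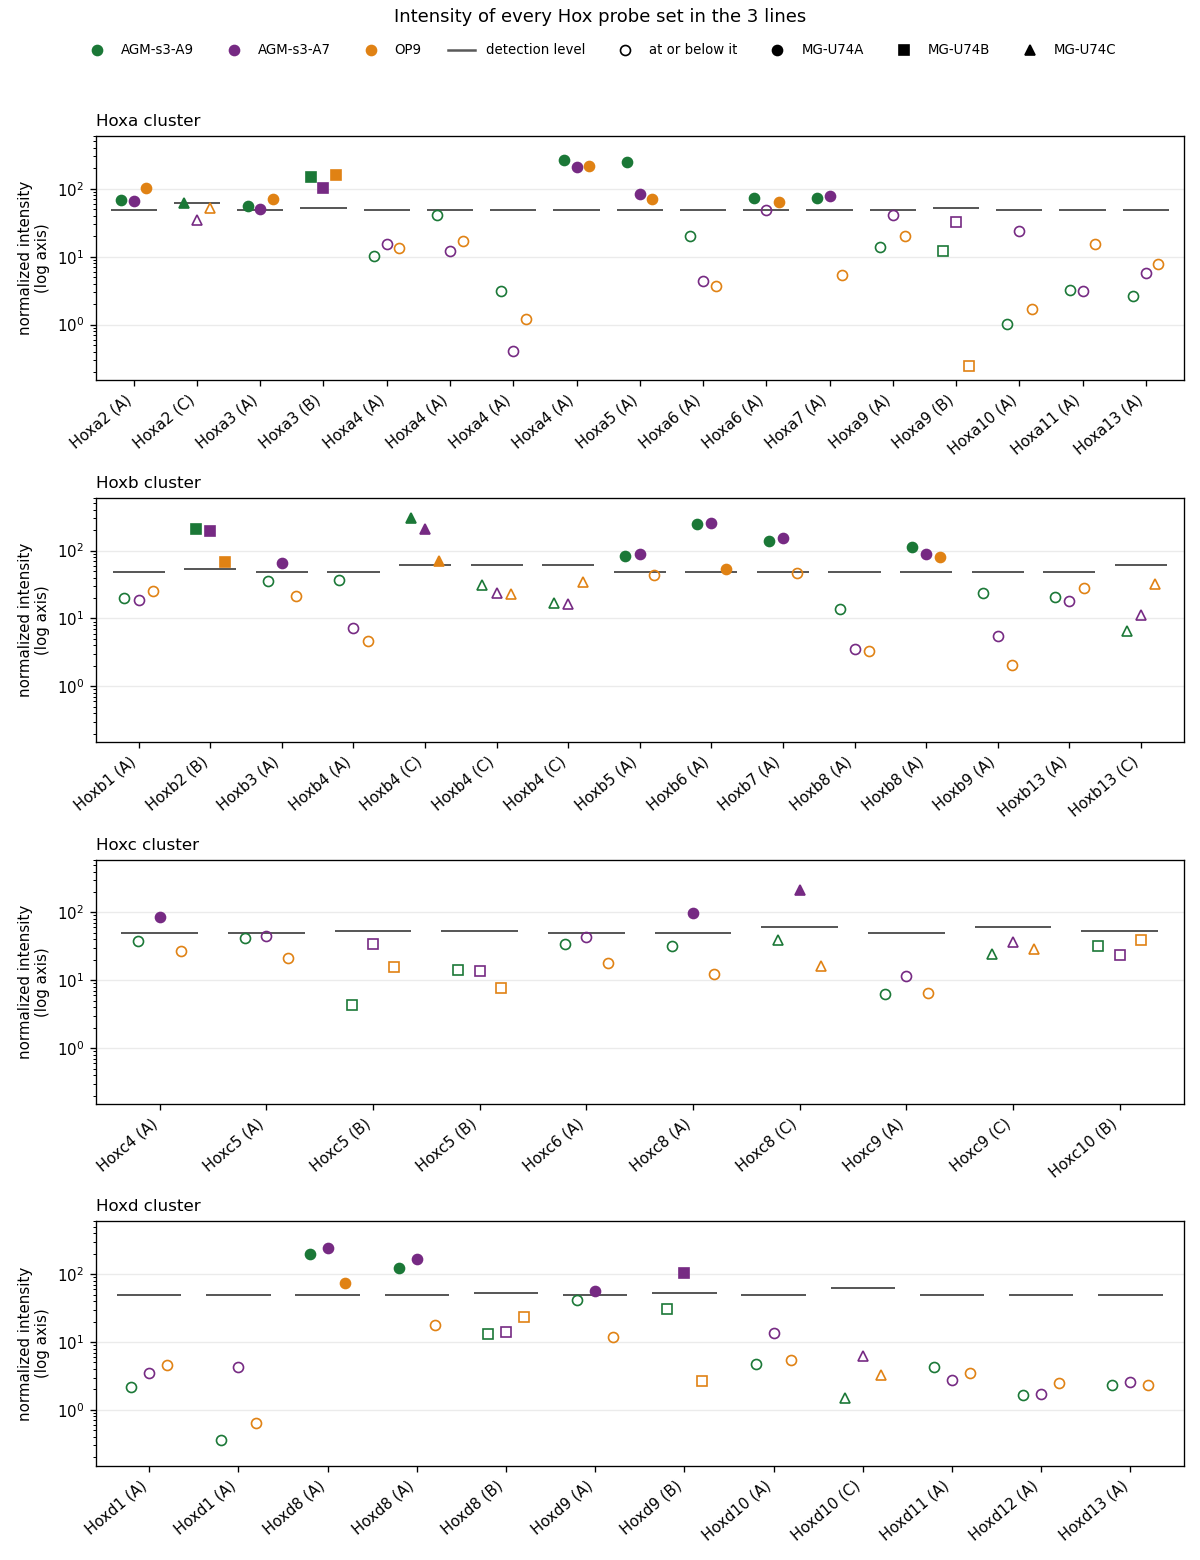
Normalized intensity (log axis) of each of the 54 Hox probe sets in AGM-s3-A9 (the supportive AGM line), AGM-s3-A7 (the non-supportive line) and OP9, 1 panel per cluster, ordered by paralog number, with the array type in brackets. Filled symbols lie above the detection level (grey bar) and open symbols at or below it; the points of Hoxb6, Hoxb7 and both detected probe sets of Hoxd8 sit lower in OP9 than in both AGM lines, and every point of paralogs 10 to 13 is open.

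The detected genes lay towards the low-numbered end of the clusters. Of 9 measured genes of paralog groups 1 to 4, 7 were detected in at least 1 line, and of 11 of groups 5 to 8, 9 were. Groups 1 to 4 had 18 probe sets, groups 5 to 8 had 18, group 9 had 7 and groups 10 to 13 had 11. A gene with more probe sets has more chances to be detected, so these gene counts are not on equal terms. Over all probe sets, 38.1% were above the level in at least 1 line. Of 4 genes of group 9 only Hoxd9 was detected, in the non-supportive line. None of the 9 genes of groups 10 to 13, the groups active in the hind trunk and the distal limbs, was detected in any line. Their highest intensity on any of 11 probe sets was 39.5, for Hoxc10 in OP9. The same genes stayed undetected under every other scaling and detection level tried but the median alone, under which Hoxb13 and Hoxc10 passed. Detection limits this statement, since a low transcript or a weak probe set gives the same reading. The 16 genes not detected in any line were Hoxa9, Hoxa10, Hoxa11, Hoxa13, Hoxb1, Hoxb9, Hoxb13, Hoxc5, Hoxc6, Hoxc9, Hoxc10, Hoxd1, Hoxd10, Hoxd11, Hoxd12 and Hoxd13.

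The clusters also differed in how many of their genes were read. In the Hoxa cluster 6 of 10 measured genes were detected in the supportive AGM line, 5 in the non-supportive line and 5 in OP9. In the Hoxb cluster the counts were 6, 7 and 4 of 10 in the same order. Hoxc genes were detected in the non-supportive line alone, with 2 of 6, at the reported scale. In the Hoxd cluster 1, 2 and 1 of 7 genes were detected. The measured genes of the clusters differ in position. Those of Hoxd were Hoxd1 and Hoxd8 to Hoxd13, since Hoxd3 and Hoxd4 had no probe set of their own. Cluster and paralog position therefore cannot be told apart in these counts. Of the 6 detected Hoxa genes, OP9 shared 4 with both AGM lines and 1, Hoxa6, with the supportive AGM line only. It shared 4 of 7 detected Hoxb genes, 0 of 2 Hoxc genes and 1 of 2 Hoxd genes with both AGM lines. The Hoxb count holds at the reported scale and level, since Hoxb4 and Hoxb6 in OP9 lay near the level. No count here has a replicate behind it. Of the 17 detected genes, 4 (Hoxa4, Hoxa6, Hoxb4 and Hoxb8) were detected only on probe sets whose name carries a suffix. The suffix marks weaker probe selection, with possible cross-hybridisation. Without such probe sets 9 genes were detected in the supportive AGM line, 13 in the non-supportive line and 6 in OP9.

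Between OP9 and the non-supportive line, 7 Hox probe sets of 6 genes were at least 2-fold lower in OP9 and 0 were higher. The genes were Hoxb2, Hoxb4, Hoxb6, Hoxb7, Hoxc8 and Hoxd8. The 7 are 13% of the 54 Hox probe sets, whereas 2.02% of all probe sets were as far lower and 1.75% as far higher. Among probe sets detected in at least 1 of the 2 lines, the Hox share was 33.3% (7 of 21), beside 5.52% lower and 4.77% higher over all 13467. The median log2 ratio of the 21 Hox probe sets was -0.80, with 16 below 0 and 5 above, beside 0.03 over all detected probe sets. By cluster the median was -1.50 for Hoxb (7 probe sets, each below 0), -0.98 for Hoxc (3), -1.33 for Hoxd (4) and 0.40 for Hoxa (7, of which 5 were above 0). Each Hoxc value, and each Hoxd value but that of 160460_at, was a lower bound in size set by the detection level. The Hoxc and Hoxd probe sets cover 2 genes each. With the floor at the median alone the Hox median was -0.35 and 2 probe sets were higher in OP9, and on MG-U74A alone 4 probe sets were lower. The summed intensity of the stroma markers was also lower in OP9, 10909 against 21239, and its part in the Hox differences was not tested.

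Hox transcripts were also lower in OP9 than in the other AGM line. The supportive AGM line was at least 2-fold higher than OP9 for 7 Hox probe sets of 6 genes, Hoxa5, Hoxb2, Hoxb4, Hoxb6, Hoxb7 and Hoxd8, and lower for 0. They are 43.8% of the 16 detected in at least 1 of these lines, beside 5.96% higher and 4.63% lower among all 13443 detected probe sets, and beside 2.18% and 1.69% of all probe sets. The median log2 ratio was 0.67 (13 above 0 and 3 below), beside -0.03 over all. It was 1.55 for Hoxb (6 probe sets), 1.37 for Hoxd (2, both of Hoxd8) and 0.10 for Hoxa (8). No Hoxc probe set was detected in either line. With the floor at the median alone 2 were lower. Both comparisons use the same OP9 arrays.

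Within the AGM pair few Hox transcripts reached a 2-fold difference. The supportive AGM line was at least 2-fold higher for Hoxa5 and at least 2-fold lower for Hoxc8, 1 probe set each. That is 1 of 22 detected Hox probe sets in each direction, beside 2.88% higher and 2.18% lower among all 13139 detected and 1.03% and 0.779% of all probe sets. A share of 1 in 22 is near this background. The median log2 ratio was -0.06, beside -0.01 over all. The scale decides this sign: on the deposited intensities the Hox median was 0.23, beside 0.13 over all, and 4 Hox probe sets (of Hoxa4, Hoxa5, Hoxa6 and Hoxb8) were at least 2-fold higher, beside 4.12% of all higher and 1.34% lower. With the floor at the median 2 were lower, and on MG-U74A alone 0 were. By cluster the median log2 ratio was 0.26 for Hoxa (8 probe sets), -0.04 for Hoxb (7), -0.98 for Hoxc (3) and -0.36 for Hoxd (4). The Hoxc values are lower bounds in size set by the detection level, and so are the same as for OP9 against the non-supportive line.

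**Figure D2:**
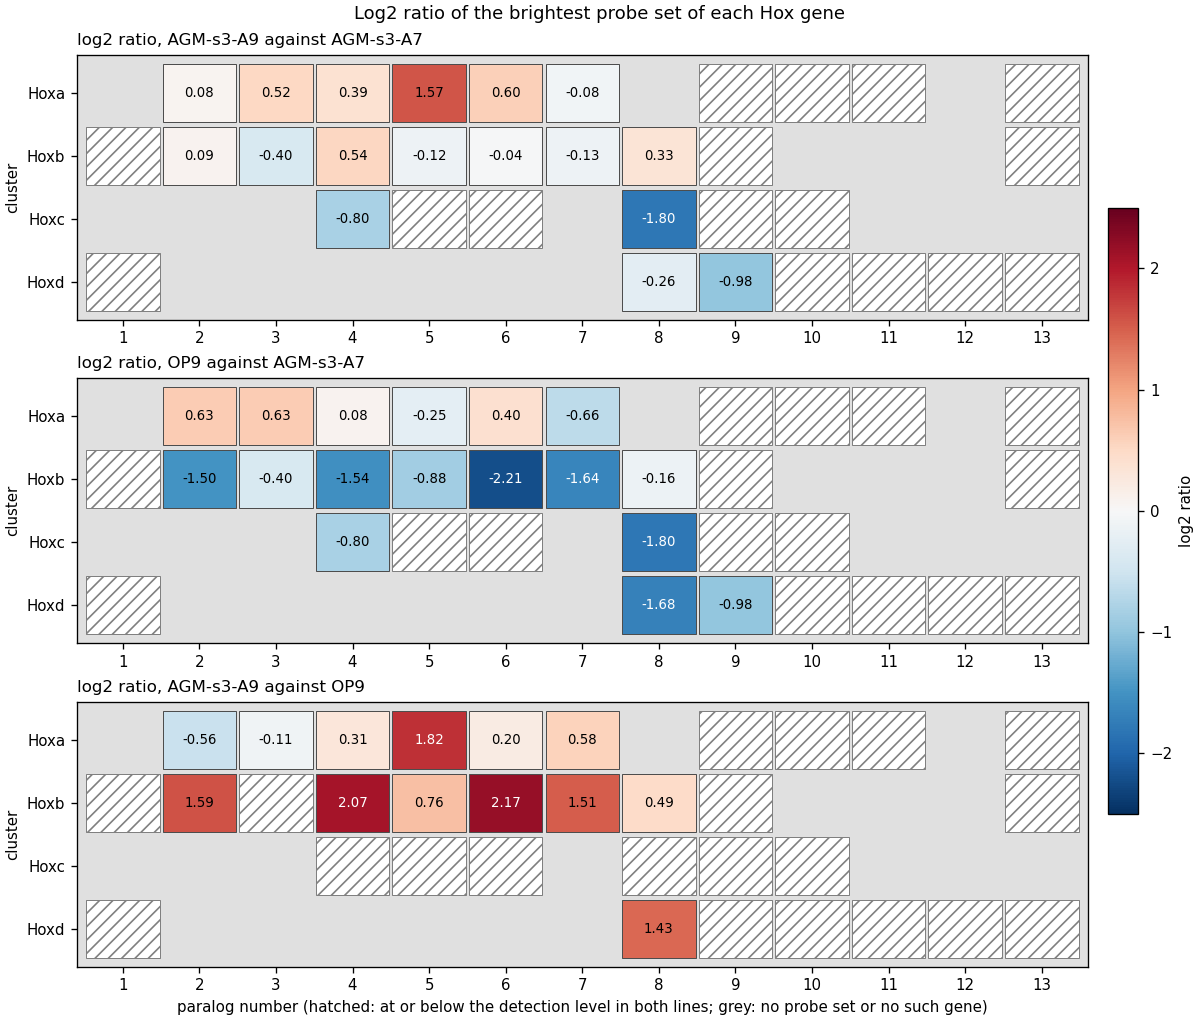
Log2 ratio of the brightest probe set of each Hox gene, by cluster (rows) and paralog number (columns), for the 3 pairs of lines; hatched genes did not exceed the detection level in either line, and values against a line at that level are lower bounds of the size. In OP9 against the non-supportive line the Hoxb row runs from -0.16 to -2.21, while in the supportive AGM line against the non-supportive line its values lie between -0.40 and 0.54.

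On its detected probe set each Hoxb gene read lowest in OP9, and apart from Hoxb3 the AGM lines differed by no more than 1.45-fold. On the deposited intensities this limit did not hold: Hoxb8 was 2.10-fold, Hoxb6 1.62-fold, Hoxb7 1.52-fold and Hoxb5 1.51-fold higher in the supportive AGM line, the last 3 with the sign turned, and Hoxb2, its sign turned too, was 1.23-fold lower. Values without a line name stand in the order supportive AGM line, non-supportive line, OP9. Hoxb6, a trunk gene of the middle of the cluster, was at an intensity of 245 in the supportive AGM line, 251 in the non-supportive line and 54.3 in OP9 (probe set 103445_at). It was thus high in both AGM lines and just above the level in OP9, 4.62-fold lower than in the non-supportive line and 4.51-fold lower than in the supportive AGM line. Hoxb7, its neighbour, read 140.0, 153 and 46.5 on probe set 92914_at and was not detected in OP9, at least 3.12-fold below the non-supportive line. Hoxb5, a gene of vagal neural crest and of hematopoietic stem cells, read 83, 90.1 and 43.9, the last below the level. Its bound in OP9 was at least 1.84-fold lower, and a bound under 2-fold does not show that the difference is smaller than 2-fold.

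Of the low-numbered Hoxb genes, Hoxb2, which patterns the hindbrain, read 205 in the supportive AGM line, 193 in the non-supportive line and 68.1 in OP9 (probe set 106927_at on MG-U74B). OP9 was 2.83-fold below the non-supportive line and 3.01-fold below the supportive AGM line, the latter falling to a log2 ratio of 0.97, just under 2-fold, on the deposited scale. Hoxb3 exceeded the level in the non-supportive line alone, with 36.1, 64.6 and 21.4, and differed there by at least 1.32-fold. Hoxb4, whose protein expands hematopoietic stem cells when overproduced in them, had 4 probe sets. Only 1 of them, 132496_f_at on MG-U74C, was detected, with 298, 205 and 70.9, or 2.90-fold lower in OP9 than in the non-supportive line and 4.21-fold lower than in the supportive AGM line. Its suffix marks possible cross-hybridisation, and the other 3 read below the level in all lines, so the Hoxb4 difference rests on 1 uncertain probe set. Hoxb8, used to immortalise myeloid progenitors, was detected on 1 of 2 probe sets, also suffixed, with 114, 90.5 and 81.3. These values differed by at most 1.40-fold, a log2 ratio of 0.49 beside the spread between probe sets of 0.34.

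Hoxd8, the only Hoxd gene detected in all 3 lines, was also lowest in OP9. Probe set 160460_at read 200.0 in the supportive AGM line, 239 in the non-supportive line and 74.4 in OP9, and probe set 93221_at read 122, 168 and 17.7. Both were lowest in OP9. The order of the AGM lines turned with the scale, since on the deposited intensities the supportive AGM line was 1.38-fold and 1.22-fold above the non-supportive line. The first was 3.21-fold and the second at least 3.42-fold lower in OP9 than in the non-supportive line; against the supportive AGM line they were 2.69-fold and at least 2.5-fold lower. A probe set for Hoxd8 on MG-U74B was not detected. Hoxd9, a gene of the lumbar trunk and the limbs, was detected in the non-supportive line alone on both of its probe sets, which read 41.1, 57.0 and 11.9 on MG-U74A and 31.0, 104 and 2.69 on MG-U74B. The bound on its difference from either other line was at least 1.16-fold on the first and at least 1.98-fold on the second. Its probe set on MG-U74A and 1 of Hoxd10 carry the same source sequence in the annotation, and that of Hoxd10 was not detected.

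Hoxc transcripts read highest in the non-supportive line among the detected probe sets. Hoxc8, which acts in thoracic vertebrae and in motor neurons of the arm, was detected there on both of its probe sets. Probe set 136504_at on MG-U74C read 39.5 in the supportive AGM line, 214 in the non-supportive line and 16.3 in OP9, and probe set 93378_at on MG-U74A read 31.5, 96.9 and 12.5. The non-supportive line was thus the single high line on either. On the first, the supportive AGM line and OP9 were each at least 3.48-fold lower than the non-supportive line, and on the second at least 1.98-fold lower, the bound being set by the detection level. Hoxc4 gave 38.1, 85.6 and 27.4, so that both supportive lines were at least 1.75-fold lower; on the deposited intensities the supportive AGM line exceeded the level, at 50.2 against 70.9, and was 1.41-fold lower. Both bounds rest on the same arrays of the non-supportive line.

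Of the 6 detected Hoxa genes, 5 were above the level in OP9. Hoxa5 alone had a fold or bound of at least 2 between any 2 lines at the reported scale. Hoxa5, which patterns the neck and upper thorax and the lung, read 247 in the supportive AGM line, 83.4 in the non-supportive line and 70.1 in OP9 (probe set 103086_at). The supportive AGM line stood alone, 2.97-fold above the non-supportive line and 3.53-fold above OP9, while the other 2 lines differed by 1.19-fold. It had no further probe set. Hoxa7 read 73.1, 77.4 and 5.33 and was at least 1.58-fold lower in OP9 than in the non-supportive line.

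Hoxa2, which specifies the skeleton of the hyoid arch, read 69.4 in the supportive AGM line, 65.9 in the non-supportive line and 102 in OP9, where it was 1.55-fold higher than in the non-supportive line. Its probe set on MG-U74C read 61.8, 34.5 and 51.6, just above the level in the supportive AGM line and below it in the other lines. Hoxa3, needed for the thymus and parathyroids, read 149, 104 and 161 on MG-U74B and 55.5, 50.6 and 69.6 on MG-U74A. OP9 was 1.55-fold and 1.38-fold above the non-supportive line on these probe sets, and the supportive AGM line was 1.43-fold and 1.10-fold above it. None of these differences reached 2-fold. On the deposited intensities the MG-U74A probe sets of both genes read higher in the supportive AGM line than in OP9, 93.4 against 89.7 for Hoxa2 and 73.7 against 61.4 for Hoxa3, so the order of these lines turned. Hoxa4 was detected on 1 of 4 probe sets, a suffixed one, with 270 in the supportive AGM line, 207 in the non-supportive line and 218 in OP9. Hoxa6, likewise on a suffixed probe set, read 74.4, 48.9 and 64.6, and its value in the non-supportive line lay just below the detection level.

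**Figure D3:**
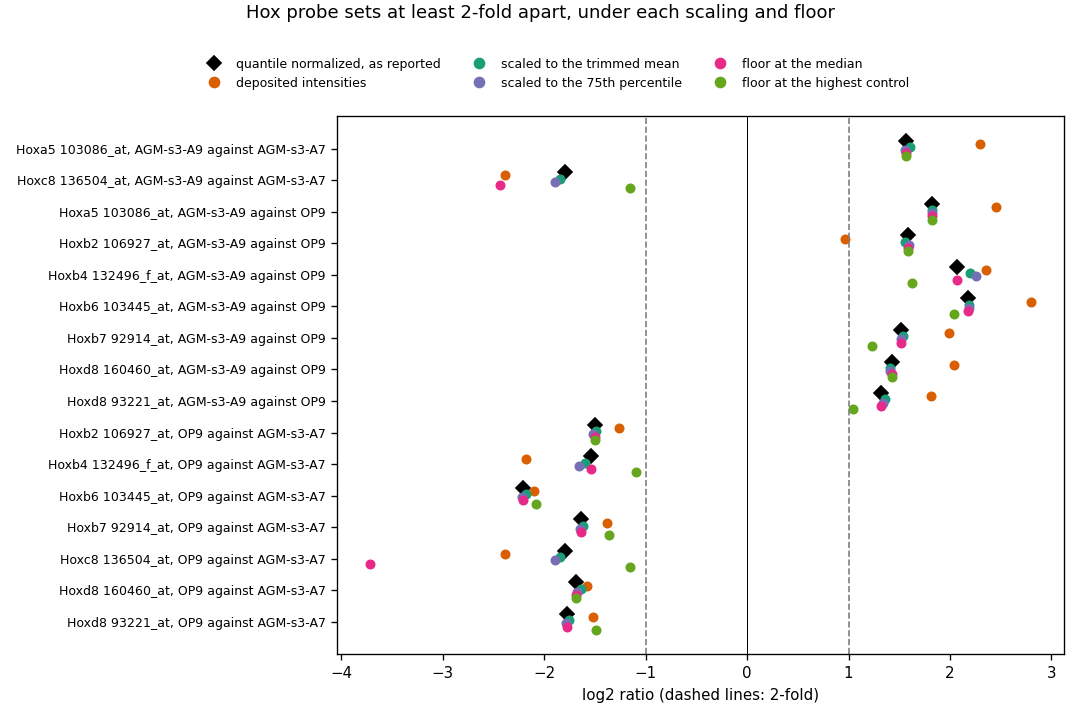
Log2 ratio (horizontal axis; dashed lines at 2-fold) of each Hox probe set and pair at least 2-fold apart, under the reported normalization (diamonds) and under 5 other scalings or floors (circles). All keep their side of 0, and Hoxb2 in the supportive AGM line against OP9 alone has a circle, at 0.97, inside the 2-fold line. On MG-U74A the floor at the median is the reported floor, so that circle repeats the value of the diamond.

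To set the clusters beside the DNA around them, the 10 nearest detected genes on each side were taken in RefSeq order, a comparison added after the data had been seen. Neighbours and chromosome genes count once, on their brightest probe set. The Hox medians run over all detected probe sets, so that some Hox genes count more than once, and include the lower bounds named above. For OP9 against the non-supportive line, the 20 neighbours of the Hoxb cluster on chromosome 11 had a median log2 ratio of -0.15 (1 at least 2-fold higher, 0 lower), beside -0.04 over the 746 detected genes of the chromosome and -1.50 for the Hoxb probe sets. Neighbours of Hoxd on chromosome 2 had a median of 0.06 (0 higher, 2 lower), beside 0.08 for the chromosome and -1.33 for Hoxd. The Hoxb and Hoxd readings were lower in OP9 while the medians of the genes around them and of their chromosomes lay near 0. For the other clusters the chromosome median lay further from 0, on the same side as the Hox median. Neighbours of Hoxc on chromosome 15, 16 genes, had a median of -0.47 (1 higher, 2 lower), beside -0.49 over the 370 detected genes of the chromosome and -0.98 for Hoxc. Neighbours of Hoxa on chromosome 6 had a median of 0.10 (4 higher, 1 lower), beside 0.37 over 479 genes of the chromosome and 0.40 for Hoxa. The part of these chromosome-wide shifts in the Hoxa and Hoxc values was not tested. Between the AGM lines the chromosome medians were -0.03 for chromosome 6, 0.01 for 11, -0.17 for 15 and 0.24 for 2.

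**Figure D4:**
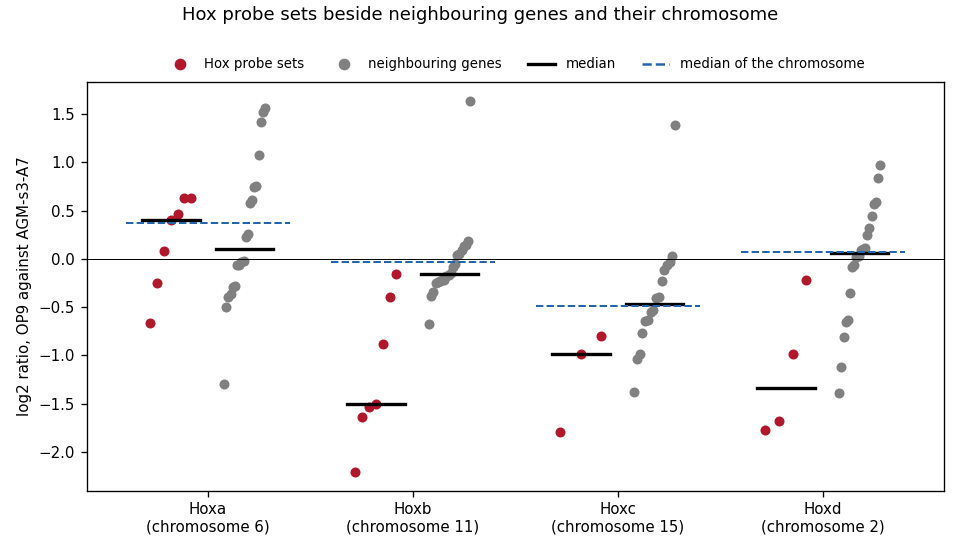
Log2 ratio of OP9 against the non-supportive line for the detected Hox probe sets (red) and for up to 20 neighbouring detected genes (grey) of each cluster, with medians (black bars) and the median of the chromosome (dashed). Each neighbouring gene is shown by its brightest probe set, whereas a Hox gene can have several points. Hoxb and Hoxd points lie mostly below their neighbours, with medians of -1.50 against -0.15 and -1.33 against 0.06.

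A list of genes that surround the clusters in mammals was also read. Its detected members are all among the neighbours described above, so it repeats their values and is no separate comparison. Of 25 measured, 17 were detected, with median log2 ratios of -0.14 for the supportive AGM line against the non-supportive line, -0.05 for OP9 against the non-supportive line and -0.01 for the supportive AGM line against OP9. Of these genes 1 was at least 2-fold higher in OP9 than in the non-supportive line and 1 lower, near the share over all detected genes (5.14% higher and 5.98% lower on the brightest probe set). Snx10, a sorting nexin gene next to the Hoxa cluster, read 175, 202 and 427 and was 2.11-fold higher in OP9. Atp5g2, an ATP synthase subunit gene near Hoxc, read 275, 476 and 232 on a suffixed probe set and was 2.05-fold lower.

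Genes whose products bind DNA with HOX proteins were detected for 6 of 8 measured members in the supportive AGM line and in OP9 and for 4 in the non-supportive line. Of the 6 detected genes, 1 was at least 2-fold higher in the supportive AGM line than in the non-supportive line, and 2 were higher in OP9 than in the non-supportive line; 0 were lower. Over all genes on their brightest probe set, 3.08% of the detected were higher and 2.28% lower in the first comparison, and 5.14% and 5.98% in the second. Pbx3 read 207 in the supportive AGM line, 90.5 in the non-supportive line and 52.1 in OP9, 2.28-fold above the non-supportive line in the supportive AGM line. Meis2, a partner that binds with both PBX and HOX, read 52.1, 39.4 and 140, at least 2.85-fold higher in OP9 than in the non-supportive line and 2.68-fold higher than in the supportive AGM line. Pknox2, of the same homeodomain class, read 73.4, 8.19 and 109, at least 2.06-fold higher in OP9 than in the non-supportive line. OP9, the line with the lowest Hoxb readings, had the highest Meis2 reading and the lowest Pbx3 reading of the 3.

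Of 20 measured Polycomb and Trithorax genes, 18 were detected, and 0 were at least 2-fold apart between OP9 and the non-supportive line. The supportive AGM line was at least 2-fold above the non-supportive line for 3 of them and below for 0, beside 3.08% higher and 2.28% lower of all detected genes. Pcgf2, a subunit of Polycomb repressive complex 1, read 136, 54.0 and 88.9, 2.51-fold higher in the supportive AGM line. Phc2, of the same complex, read 101, 38.7 and 63.0, at least 2.06-fold higher. Men1, encoding menin of a Trithorax-type methyltransferase complex, read 101, 16.1 and 15.3 and was detected in the supportive AGM line alone. The median log2 ratio of the list was -0.01 in this pair and 0.36 for OP9 against the non-supportive line.

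Retinoic acid and Cdx genes were detected for 8 of 17 measured members. Of these, 1 was at least 2-fold lower in the supportive AGM line than in the non-supportive line and 2 were lower in OP9, with 0 higher in either. Of all detected genes 2.28% and 5.98% were as far lower in these comparisons. Crabp2, which carries retinoic acid to its receptors in the nucleus, read 98.8, 229 and 2.20, 2.32-fold lower in the supportive AGM line and at least 4.68-fold lower in OP9. Rarg, a retinoic acid receptor gene, read 193, 306 and 109, 2.80-fold lower in OP9. Rarb, itself a target of the receptors in many cells, read 125, 88.2 and 22.1, and was at least 2.02-fold higher in the supportive AGM line than in OP9. For both receptor genes OP9 was the lowest line, as it was for the detected Hoxb genes. Rara, Rxra and Rxrb also read lowest in OP9, but by less than 2-fold. For Rara and Rxra this order depended on the scale. On the deposited intensities Rara read 489, 646 and 622, lowest in the supportive AGM line. Rxra read 336, 170 and 177 there, lowest in the non-supportive line. Not every detected member was lowest there. Aldh1a1 read 3.20, 6.89 and 62.8 and was detected in OP9 alone, and Dhrs3 read 45.0, 68.6 and 68.3. A link between the genes of this list and the Hoxb readings was not tested.

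Homeobox and positional transcription factors outside the clusters showed differences in both directions. Of 46 measured, 22 were detected. The supportive AGM line was at least 2-fold above the non-supportive line for 2 and below for 2, and OP9 was above the non-supportive line for 1 and below for 3. Over all detected genes 3.08% were higher and 2.28% lower in the AGM pair, and 5.14% and 5.98% in OP9. Dlx5, a regulator of craniofacial bone, read 93.0, 32.0 and 203, at least 4.14-fold higher in OP9 than in the non-supportive line. Prrx2, of limb and head mesenchyme, read 654, 822 and 201, 4.08-fold lower in OP9. Six5 read 153, 66.3 and 9.57, 2.30-fold higher in the supportive AGM line than in the non-supportive line and not detected in OP9. Foxf1, of visceral mesoderm, read 58.6, 136 and 63.6, 2.32-fold lower in the supportive AGM line and 2.14-fold lower in OP9. The median log2 ratio of the list was -0.06 for the AGM pair and 0.07 for OP9 against the non-supportive line, near that of all genes (0.01 and 0.04).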

How the data were processed

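The authors deposited 1 linear intensity per probe set and array for 3 lines on 3 Affymetrix array types. Per the labels' protocols, RNA was isolated with RNeasy columns and 6 ug went into cRNA labelling. How the scans became intensities (background, summarisation, scaling) is not given in the sources used here. Trimmed means (2% at each end) of the deposited intensities differed by up to 61.1% between arrays of a type, so log2 values were quantile normalized within it, which removes any general shift between lines. Levels were compared within a probe set only. Of 36701 probe sets without controls, 29131 had 1 symbol, 724 several and 6846 none. Symbols, gene order and promoters came from RefSeq (GRCm38.p6). The members and gene lists were chosen with earlier results of these data known. Named are all detected Hox genes and, of each other list, at most 4 members at least 2-fold apart on their brightest probe set, in order of size. The other detected retinoic acid genes are named as well, to show members that differed less or in the other direction. Without replicates no test was run. The scaling, detection level, fold, suffixed probe sets, array type and choice of probe set were varied. The ratio and count code was tested on simulated data. Python 3.11.15, numpy 2.4.6, pandas 2.3.3 and scipy 1.17.1 were used.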

Additional observations from a re-analysis of the deposited data

Results flagged for a closer look

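Transcripts of the Hox clusters were also read by probe sets outside the 54, which carry several symbols or name an antisense gene, and some exceeded the level of the no-target controls. A probe set on MG-U74A annotated to 2 Hoxb genes read 120 in the supportive AGM line, 171 in the non-supportive line and 70.6 in OP9, 2.43-fold lower in OP9 than in the non-supportive line. Another, on MG-U74B, annotated to Hoxa7 and a noncoding transcript, read 118 and 150 in the AGM lines. It lay below the level in OP9, at least 2.83-fold lower than in the non-supportive line. Hoxb5os, antisense to Hoxb5, read 88.8 in the supportive AGM line and 92.6 in the non-supportive line and was not detected in OP9, at least 1.5-fold lower there. Hoxa11os, antisense to Hoxa11, read 221 in the supportive AGM line, 309 in the non-supportive line and 387 in OP9 on a suffixed probe set of MG-U74C, while its 2 probe sets on MG-U74A and that of Hoxa11 were not detected in any line.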

How the results depend on the processing

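Of the 16 ratios of at least 2-fold, 15 stayed so under all 5 other scalings and floors, the exception being Hoxb2 in the supportive AGM line against OP9. On MG-U74A the reported detection level already is the median, 49.0, so the floor at the median could not change a ratio of that array type. On the deposited scale the median log2 ratio of all detected probe sets moved to 0.13 for the supportive AGM line against the non-supportive line and 0.15 for the supportive AGM line against OP9; 4.12% of all probe sets were then at least 2-fold higher and 1.34% lower in the first (1.03% and 0.779% as reported) and 4.54% and 2.78% in the other. On that scale 4 Hox probe sets were higher in the supportive AGM line than in the non-supportive line (1 as reported), and the Hox medians were 0.23 (reported -0.06, so the sign turned), -0.55 for OP9 against the non-supportive line and 0.96 for the supportive AGM line against OP9. With the floor at the median, 2 were lower in the supportive AGM line than in the non-supportive line, 2 higher in OP9 than in the non-supportive line and 2 lower in the supportive AGM line than in OP9, with medians of -0.35 and 0.45 for the OP9 pairs; with the floor at the highest control these were -0.56 and 0.49. Without suffixed probe sets they were -0.88 and 1.04, and 6 genes were detected in OP9 (10 as reported). On MG-U74A alone, 0 were lower in the supportive AGM line and 4 lower in OP9 than in the non-supportive line, with a median of -0.53. With 1 probe set per gene the median of the supportive AGM line against OP9 was 0.76. At 1.5-fold, 2 were higher and 4 lower in the supportive AGM line than in the non-supportive line, and 2 higher and 12 lower in OP9; at 3-fold, 0 were higher in the supportive AGM line than in the non-supportive line and 4 higher than in OP9. The cause of these shifts was not tested beyond what each setting changes by construction. For single probe sets, 253 values under other settings moved by no more than the spread between probe sets and 42 moved by more. The 253 include the MG-U74A values with the floor at the median, which could not move. Of 59 ratios, 10 turned sign on the deposited scale and 1 on the trimmed-mean scale; 0 of those of at least 2-fold did. Signal over background limits the rest: 32 of the 54 probe sets lay at or below the detection level in every line.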
